A study of Mus musculus with 35 samples.

Results

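CC chemokine ligands were followed at the transcript level in myeloid-derived suppressor cells (MDSC) of mice with pancreatic tumors. The 10 members were chosen by name, as the rows of the count table whose Ensembl identifiers belong to Ccl2, Ccl3, Ccl4, Ccl5, Ccl6, Ccl7, Ccl8, Ccl9, Ccl12 and Ccl24, out of 53379 gene rows in all. Female C57BL/6 mice, 6 to 12 weeks old per the methods, carried orthotopic pancreatic tumors of T110299 cells, a single line derived from a mouse in which Cre under the Ptf1a promoter drives pancreatic tumors. The treated mice received poly(I:C)c, a double-stranded RNA mimic (50 µg) complexed with a polyethylenimine carrier, intravenously at day 18 and day 20 after tumor induction, while the control mice are called untreated in the labels, and the treatment protocol names glucose as the control. PMN-MDSC (CD11b+ Ly6C low Ly6G+, the granulocytic kind) and M-MDSC (CD11b+ Ly6C high Ly6G-, the monocytic kind) were sorted from spleen and tumor, and whole tumor of untreated mice was lysed without sorting. With 4 mice in each arm, PMN-MDSC gave 4 untreated and 3 treated libraries from spleen and 4 and 4 from tumor, M-MDSC gave 4 and 4 from spleen and 4 and 3 from tumor, and bulk tumor gave 4. One more library of tumor M-MDSC from a treated mouse held 10 counts and was left out.

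CC chemokines are small secreted proteins that steer leukocytes through G protein-coupled receptors on the responding cell. Ccl2, Ccl7 and Ccl12 draw inflammatory monocytes out of the bone marrow and into tissue through the receptor CCR2, and mouse Ccl8 acts on CCR8. Ccl3, Ccl4 and Ccl5 attract T cells, natural killer (NK) cells and macrophages, and Ccl5 is a known target of interferon regulatory factors and NF-kB. Ccl6 and Ccl9 are rodent ligands of CCR1 that myeloid cells make without a stimulus, and Ccl24 is an eotaxin that acts on CCR3 of eosinophils. In tumors, the CCR2 ligands are known for the recruitment of the very monocytes that become M-MDSC and macrophages.

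On GRCm38, 9 of the 10 genes lie on chromosome 11 in 2 groups. The first group spans 81.2 kb and holds Ccl2 (ENSMUSG00000035385.5, chr11:82035571-82037453), Ccl7 (ENSMUSG00000035373.2, chr11:82045712-82047525), Ccl12 (ENSMUSG00000035352.3, chr11:82101845-82103400) and Ccl8 (ENSMUSG00000009185.2, chr11:82115185-82116799), all on the plus strand. The second spans 139 kb and holds Ccl5 (ENSMUSG00000035042.2, chr11:83525778-83530518), Ccl9 (ENSMUSG00000019122.8, chr11:83572919-83578636), Ccl6 (ENSMUSG00000018927.3, chr11:83587882-83593087) and Ccl3 (ENSMUSG00000000982.5, chr11:83647844-83649355) on the minus strand and Ccl4 (ENSMUSG00000018930.3, chr11:83662584-83664683) on the plus strand. Ccl24 (ENSMUSG00000004814.10, chr5:135569937-135573049, minus strand) stands alone on chromosome 5. Antisense genes overlap Ccl2 (Gm17268) and Ccl6 (E230016K23Rik), and fragments were counted by strand. All 10 genes are protein coding, and their summed exon lengths run from 511 bases for Ccl8 to 3045 for Ccl9, so levels of different genes are compared below only as FPKM, which divides by that length.

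RefSeq promoter windows on GRCm38.p6, from 250 bases before to 50 after the start site, were at hand for 5 of the 10 members, Ccl12, Ccl8, Ccl9, Ccl6 and Ccl3. They are shown because they cover 3 patterns met in the data, transcripts at 0 or 1 count in untreated spleen and abundant in tumor (Ccl12 and Ccl8), transcripts present in every group (Ccl9 and Ccl6) and a transcript that treatment raised in splenic M-MDSC (Ccl3). The 150 bases before the start follow 5′ to 3′ on the gene's own strand, with capitals for letters that match any of the 6 motifs searched on both strands.
Ccl12, chr11:82101695-82101844, plus strand: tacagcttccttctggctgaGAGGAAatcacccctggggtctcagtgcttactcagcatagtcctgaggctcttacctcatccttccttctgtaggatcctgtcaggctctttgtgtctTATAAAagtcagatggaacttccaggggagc
Ccl8, chr11:82115035-82115184, plus strand: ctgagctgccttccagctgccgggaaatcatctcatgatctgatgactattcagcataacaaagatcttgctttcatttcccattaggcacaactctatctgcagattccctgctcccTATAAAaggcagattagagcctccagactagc
Ccl9, chr11:83578637-83578786, minus strand: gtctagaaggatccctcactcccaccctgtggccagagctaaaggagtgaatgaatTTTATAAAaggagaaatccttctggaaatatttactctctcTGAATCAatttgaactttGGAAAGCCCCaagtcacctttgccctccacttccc
Ccl6, chr11:83593088-83593237, minus strand: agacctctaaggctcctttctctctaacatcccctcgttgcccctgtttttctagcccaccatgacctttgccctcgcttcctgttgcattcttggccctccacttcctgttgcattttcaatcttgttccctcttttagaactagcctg
Ccl3, chr11:83649379-83649528, minus strand: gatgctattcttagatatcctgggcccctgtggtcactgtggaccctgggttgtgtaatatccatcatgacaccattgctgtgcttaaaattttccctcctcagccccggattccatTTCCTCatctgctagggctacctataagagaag
A TATA box (TATAAA, in 13.6% of all 32851 windows) ends 26 bases before the start of Ccl12 and 27 bases before that of Ccl8, while that of Ccl9 begins 92 bases before its start and overlaps the same motif on the other strand. Ccl9 alone holds a kappaB motif on its opposite strand (searched by name, 8.46% of windows) and an AP-1 motif (TGANTCA, 7.81%). A PU.1 core (GAGGAA, 28.3%) lies in the window of Ccl12, Ccl8 (further upstream than the bases shown) and Ccl3, and the window of Ccl6 holds none of the 6. The interferon-stimulated response element (ISRE, GAAA, NN and GAAA in a row, 3.44%) and the GAS element (TTCNNNGAA, 8.3%) were not found in these 5 windows. In global alignments the printed bases of Ccl12 and Ccl8 were 59.4% identical, and those of the other 9 pairs 43.0 to 51.8%.

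MDSC libraries held 793070 to 4357105 counts and bulk tumor libraries 3771590 to 8886115, so that 3 counts, taken here as the floor, stand for 0.689 to 3.78 CPM, counts scaled to library size, in an MDSC library. CPM values were scaled with TMM factors over the 34 libraries. The sort labels were checked against marker lists, and tumor PMN-MDSC went against theirs in part. The 12 neutrophil genes summed to 21712 to 37942 CPM in untreated splenic and 1382 to 4596 CPM in untreated tumor PMN-MDSC, in which Ly6g itself stood at 0 to 9.19 CPM, while the 10 macrophage genes summed to 503 to 1458 and 9372 to 13362 CPM. Untreated tumor M-MDSC held 3476 to 8276 CPM of the macrophage genes and 10611 to 14211 CPM of the 8 monocyte genes, against 690.3 to 943 and 5721 to 9019 CPM in spleen. Among the treated tumor M-MDSC, library 2 stood apart with 27471 CPM of macrophage genes (5032 and 10292 in the others), and among the treated splenic M-MDSC library 4 held 19486 CPM of B and plasma cell genes (185 to 580.0 in the others). Library numbers only name the columns of a group.

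Summed over the 10 ligands, the level per length was lowest in bulk tumor and highest in tumor MDSC of treated mice. Untreated splenic PMN-MDSC held 702 ± 177 FPKM (SD, n = 4), of which Ccl6 alone made up 95.5%, and untreated splenic M-MDSC held 238 ± 33.5 FPKM (n = 4), with 73.5% Ccl6 and 20.9% Ccl9. In the tumors of the same arm the sum was 1631 ± 236 FPKM in PMN-MDSC and 1433 ± 282 in M-MDSC (n = 4 each), and the share of Ccl6 was 35.9% and 40.3%. Treated mice gave 418 ± 224 FPKM in splenic PMN-MDSC (n = 3), 2549.9 ± 351 in tumor PMN-MDSC (n = 4), 558 ± 149 in splenic M-MDSC (n = 4) and 2304 ± 539 in tumor M-MDSC (n = 3). Ccl5 made up 58.8% of the sum in splenic and 32.6% in tumor M-MDSC of treated mice, against 2.32% and 1% without treatment. Bulk tumor held 55.4 ± 20.4 FPKM (n = 4).

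**Figure D1:**
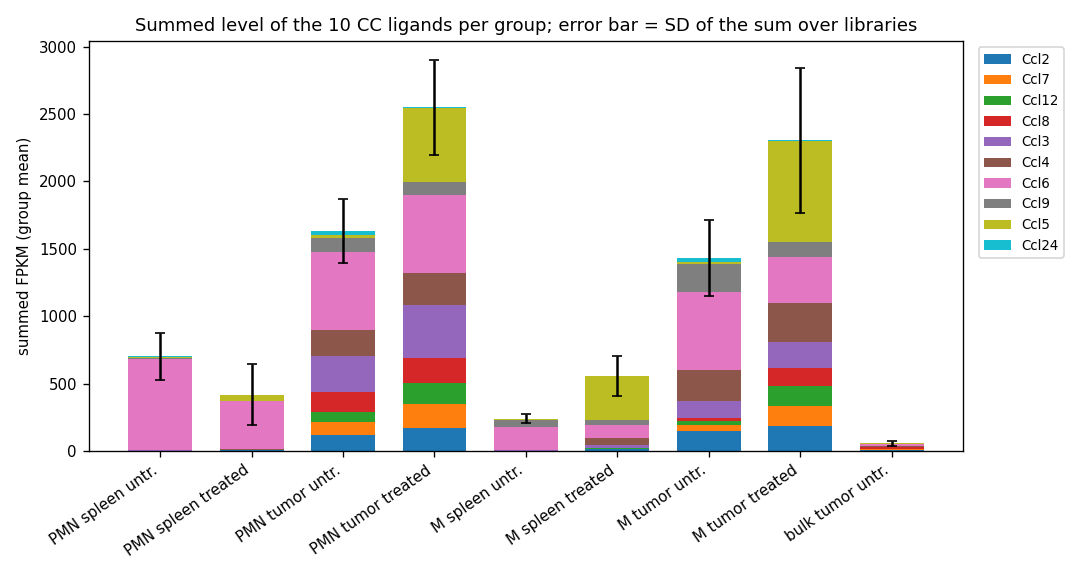
Summed level of the 10 CC ligands, as FPKM on a linear axis from 0, in the 9 groups on the horizontal axis. Each coloured segment is the group mean of a gene and the error bar is the SD of the sum over libraries (n = 3 or 4), and Ccl6 fills most of the bar in untreated spleen, while in tumor many genes share it and in treated groups Ccl5 widens.

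Ccl6 was the first of the 10 in FPKM in all 5 untreated groups, bulk tumor included, and in treated PMN-MDSC of both compartments, and Ccl5 was the first in treated M-MDSC of spleen and tumor. The lead of Ccl6 exceeded the range of the libraries in untreated and treated splenic PMN-MDSC, in untreated tumor PMN-MDSC and in untreated M-MDSC of both compartments, and in bulk tumor and the remaining group it did not. The lead of Ccl5 exceeded that range in treated splenic M-MDSC and did not in treated tumor M-MDSC. In untreated tumor PMN-MDSC the order after Ccl6 (585 ± 160.3 FPKM, SD, n = 4) was Ccl3 (268 ± 53), Ccl4 (189.6 ± 48.8), Ccl8 (146 ± 5.09), Ccl2 (117 ± 32.9), Ccl9 (102 ± 30.4), Ccl7 (98.9 ± 37.7), Ccl12 (74.4 ± 12.9), Ccl24 (31.7 ± 8.62) and Ccl5 (18.2 ± 8.77). From Ccl3 to Ccl12 each gene overlapped the next over the 4 libraries, whereas Ccl12, Ccl24 and Ccl5 were separated without overlap. In untreated tumor M-MDSC the order was Ccl6 (577 ± 135), Ccl4 (235 ± 84.9), Ccl9 (203 ± 57), Ccl2 (145 ± 62.8), Ccl3 (126 ± 28.9), Ccl7 (49 ± 21.7), Ccl24 (34.4 ± 13), Ccl12 (26.4 ± 6.14), Ccl8 (21.9 ± 20) and Ccl5 (14.4 ± 10.2), with gaps only after Ccl6 and after Ccl3. In untreated spleen, Ccl7 and Ccl12 had 0 counts in all libraries of either cell type.

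**Figure D2:**
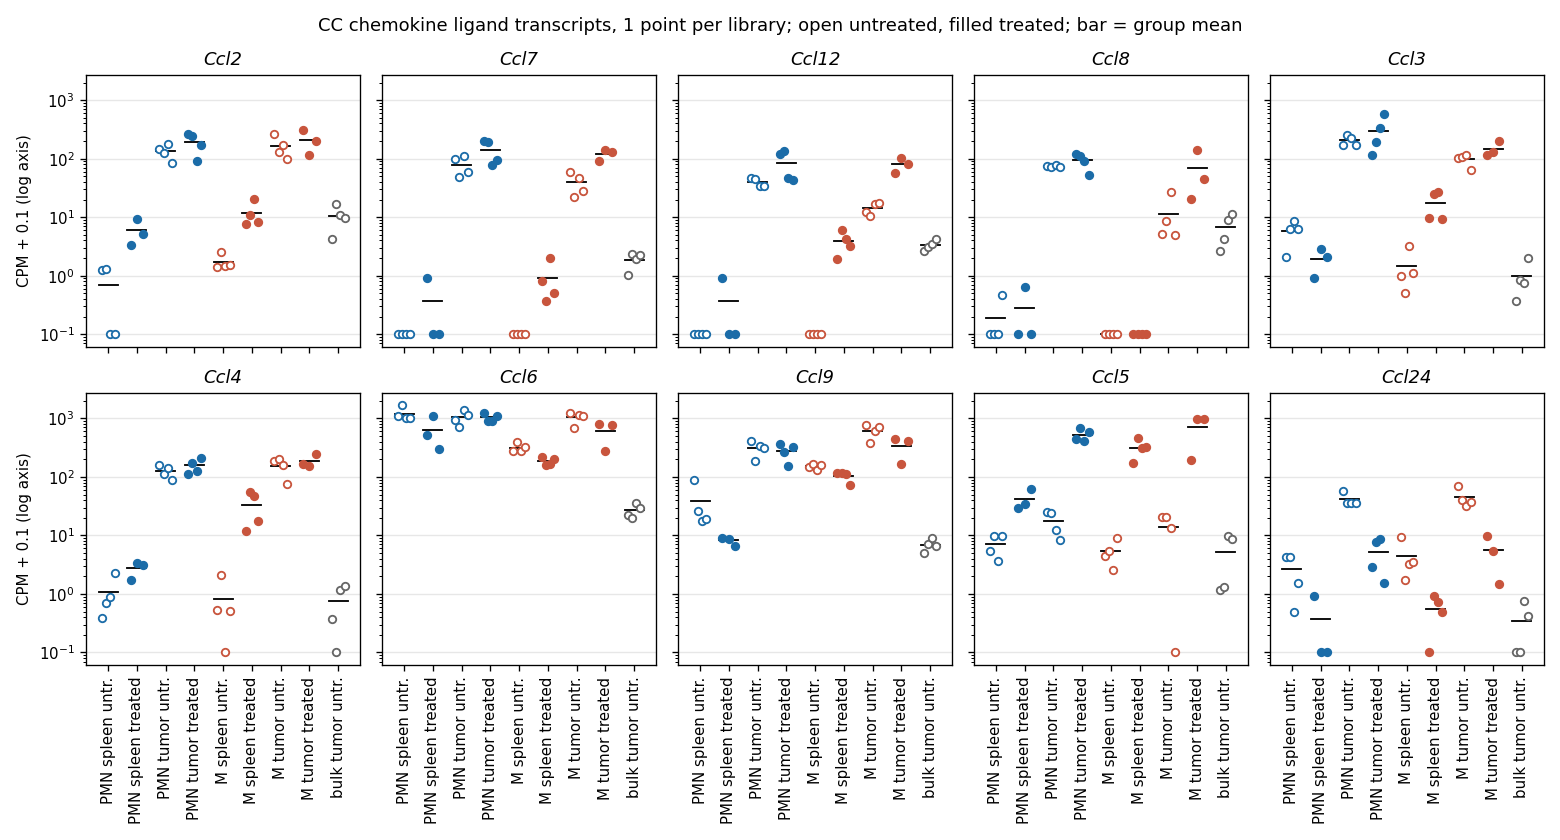
CPM + 0.1 on a log axis for each of the 10 genes, 1 point per library, in the 8 MDSC groups and bulk tumor on the horizontal axis. Open points are untreated and filled points treated libraries, bars are group means, PMN-MDSC are blue, M-MDSC red and bulk tumor grey, and points at the bottom edge are libraries with 0 counts.

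In bulk and sorted pools alike, fewer cells of a type and less RNA per cell cannot be told apart. The first question the design raises is how MDSC in the tumor differ from those in the spleen without treatment. In PMN-MDSC, 9 of the 10 members were higher in tumor (edgeR quasi-likelihood test, adjusted p under 0.05), where 59.1% of all genes tested were called and 29.4% were called higher. In M-MDSC, all 7 members tested were higher in tumor, against 28.4% of all genes called and 15.7% called higher. All members but Ccl6 and Ccl9 averaged under 25 counts in untreated spleen and could pass the filter of 25 counts on average only through tumor, so these counts support nothing and are a description. In spleen, M-MDSC against PMN-MDSC gave 1 member higher and 1 lower of 2 tested, with 64.4% of all genes called (33.4% higher and 30.9% lower). In tumor it gave 1 higher and 4 lower of 10 tested, with 13% of all genes called (5.73% higher and 7.25% lower). The median log2 difference in tumor was -0.21 over the members and 0.01 over all genes. Compared with bulk tumor, 10 of 10 members were higher in tumor PMN-MDSC (69.5% of all genes called, 33.3% higher) and 8 of 10 in tumor M-MDSC (69.2% called, 31% higher). Ccl3, Ccl4, Ccl7 and Ccl24 averaged under 25 counts in bulk tumor and passed the filter only through the sorted cells, so the counts against bulk tumor are likewise a description. Of all genes, the libraries of the groups did not overlap in 54.5% and 31.1% between compartments, in 58.9% and 19.3% between cell types of spleen and tumor, and in 66.6% and 64.9% against bulk tumor, which is the background for each member said below not to overlap.

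The second question is what poly(I:C)c changed. In splenic PMN-MDSC 1 of 3 members tested rose, where 11.6% of all genes were called (6.1% higher and 5.52% lower). In tumor PMN-MDSC 1 rose and 1 fell of 10 tested, where 3.36% of all genes were called (2.29% higher and 1.07% lower). Splenic M-MDSC had 3 members higher and 2 lower of 5 tested, with 19.6% of all genes called (10.7% higher and 8.96% lower). Tumor M-MDSC had 3 higher and 1 lower of 10 tested, with 2.88% of all genes called (1.82% higher and 1.06% lower). The median log2 change of the 10 members was 0.36 in tumor PMN-MDSC and 0.42 in tumor M-MDSC, where the median over all genes tested was 0.01 and -5.4e-04. Ccl5 rose in all 4 comparisons. Ccl3, Ccl4 and Ccl5 in splenic M-MDSC and Ccl5 in splenic PMN-MDSC averaged under 25 counts without treatment and passed the filter only through the treated libraries, and Ccl24 in tumor PMN-MDSC and tumor M-MDSC averaged under 25 counts with treatment and passed only through the untreated ones, so these had to differ and their count supports nothing. Of all genes, 26.3%, 12%, 25.4% and 19.4% did not overlap between treated and untreated libraries of splenic PMN-MDSC, tumor PMN-MDSC, splenic M-MDSC and tumor M-MDSC. At the stricter threshold of the study (adjusted p under 0.001 and at least 2-fold), 0.0413%, 0.241%, 2.47% and 0.012% of genes were called in the same order, 23.2% and 1.65% between cell types in spleen and tumor, and 0% and 0.0115% for the difference in treatment effect of PMN-MDSC and M-MDSC. Without the filter the difference in treatment effect was called for 2% and 2.21% of genes and the treatment effect in tumor PMN-MDSC for 2.91%. DESeq2 called 18.6% of genes in splenic PMN-MDSC, with 2 members, and 6.23% for the difference in PMN-MDSC, with 2 members. A single fit over all MDSC groups called 22.9% in splenic PMN-MDSC (2 members), 13.4% in splenic M-MDSC (3 members), 7.96% between tumor cell types (2 members) and 5.92% for the difference in PMN-MDSC (0 members).

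**Figure D3:**
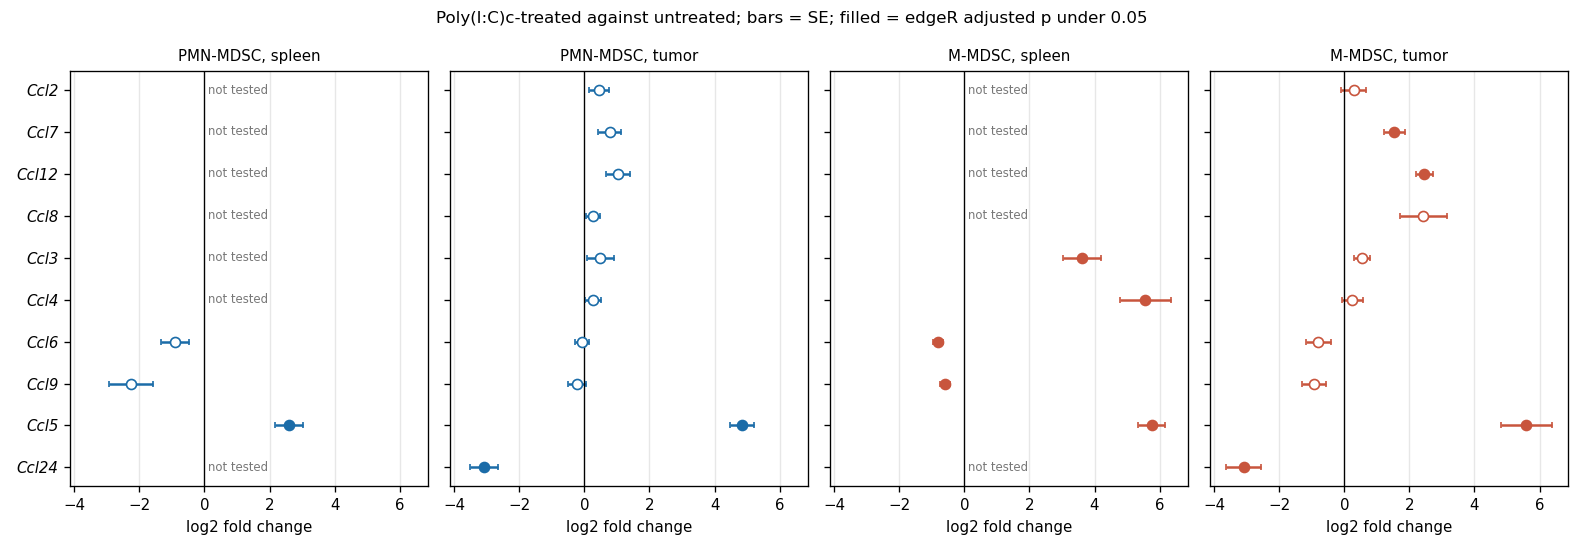
Log2 fold change of treated against untreated for each of the 10 genes in the 4 MDSC populations, with SE bars. Filled points passed an edgeR adjusted p of 0.05, open points did not, and genes below 25 counts on average are written as not tested, and the filled points lie at Ccl5 in each panel, at Ccl24 in the tumor panels, at Ccl3, Ccl4, Ccl6 and Ccl9 in splenic M-MDSC and at Ccl7 and Ccl12 in tumor M-MDSC.

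Ccl2, the main attractant of CCR2-bearing monocytes, was close to absent in untreated spleen and abundant in untreated tumor. Untreated splenic PMN-MDSC held 1.13, 1.22, 0 and 0 CPM and untreated tumor PMN-MDSC 146, 127, 175 and 85.9 CPM. The corresponding M-MDSC held 1.33, 2.44, 1.39 and 1.41 CPM in spleen and 262, 128, 172 and 99 CPM in tumor. In either cell type every tumor library stood above every splenic library, and the log2 difference was 7.85 ± 0.52 (SE; edgeR adjusted p = 2.9e-06) in PMN-MDSC, or 8.70 without library 1 of spleen, and 6.70 ± 0.36 (SE; edgeR adjusted p = 1.4e-07) in M-MDSC. Tumor PMN-MDSC (133 ± 37.5 CPM, SD, n = 4) and tumor M-MDSC (165 ± 71.4 CPM, SD, n = 4) overlapped in Ccl2, with a log2 difference of 0.24 ± 0.27 (SE; edgeR adjusted p = 0.633). After treatment, tumor PMN-MDSC held 262, 243, 92 and 169 CPM and tumor M-MDSC 311, 115 and 201 CPM. These ranges overlapped those without treatment, and neither the log2 change of 0.45 ± 0.31 (SE; edgeR adjusted p = 0.482) nor that of 0.29 ± 0.38 (SE; edgeR adjusted p = 0.731) passed the test.

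In spleen, Ccl2 was too low for the filter. The treated splenic libraries held 3.31, 9.24 and 5.01 CPM in PMN-MDSC and 7.58, 10.7, 20.4 and 8.34 CPM in M-MDSC, from 4, 17 and 10 and 21, 39, 65 and 21 counts. All lay above the untreated libraries of their cell type. Fitted without the filter on low counts, the log2 rise of Ccl2 was 3.31 ± 0.82 (SE; edgeR adjusted p = 0.00174) in splenic PMN-MDSC and 2.81 ± 0.41 (SE; edgeR adjusted p = 2.3e-07) in splenic M-MDSC. Those fits called 6.58% and 7.7% of all genes. A fit without the filter estimates the spread over another and larger set of genes. Its p-values, here and below, therefore cannot be ranked against those of the filtered fits. The test of the difference between tumor and spleen in the treatment effect gave -2.83 ± 0.84 (SE; edgeR adjusted p = 0.0792) for PMN-MDSC and -2.50 ± 0.64 (SE; edgeR adjusted p = 0.086) for M-MDSC, so neither passed. Without library 1 of untreated spleen the PMN-MDSC value was -3.64 and still did not pass. Without library 1 of treated tumor the M-MDSC value was -2.92 and passed (edgeR adjusted p = 0.0249).

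Ccl7, the neighbour of Ccl2 with the same receptor, had 0 counts in all 8 untreated splenic libraries. Untreated tumor libraries held 99.7, 47.7, 109.9 and 59.6 CPM in PMN-MDSC and 60.3, 22.1, 46.4 and 28.1 CPM in M-MDSC. Set against a floor of 3 counts over the splenic group, Ccl7 was at least 278-fold higher in tumor PMN-MDSC and at least 164-fold higher in tumor M-MDSC than in their splenic counterparts. Treated tumor M-MDSC held 89.6, 139.7 and 128 CPM, above every untreated library, a rise of 1.54 ± 0.32 (SE; edgeR adjusted p = 0.0379), which lost the call in 5 of 7 fits that left out 1 library (adjusted p 0.0273 to 0.133), all but those without treated library 1 or 2. Treated tumor PMN-MDSC held 199.7, 194, 78.4 and 94.3 CPM and overlapped the untreated ones, with 0.78 ± 0.35 (SE; edgeR adjusted p = 0.268). Treated splenic M-MDSC held 2, 1, 6 and 1 counts of Ccl7, at least 3.44-fold the untreated group by the floor, and fitted without the filter the change did not pass (edgeR adjusted p = 0.0623).

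Ccl12, a CCR2 ligand found in mice and not in humans, followed Ccl7 closely (Pearson r = 0.967 over the 30 MDSC libraries). It too had 0 counts in all 8 untreated splenic libraries, and untreated tumor libraries held 47.6, 44.1, 34 and 34.2 CPM in PMN-MDSC and 12.4, 10.4, 16.7 and 17.1 CPM in M-MDSC. These levels were at least 140.0-fold and at least 59.4-fold above the spleen. Tumor M-MDSC lay below tumor PMN-MDSC without overlap, with a log2 difference of -1.58 ± 0.24 (SE; edgeR adjusted p = 0.00118). For Ccl7 the same difference was -1.06 ± 0.31 (SE; edgeR adjusted p = 0.0452) with overlapping ranges, a call lost in 6 of 8 fits without 1 library. With treatment, tumor M-MDSC rose to 57.4, 101 and 81.5 CPM, clear of all untreated libraries, by 2.46 ± 0.27 (SE; edgeR adjusted p = 0.0043). The call held when any library was left out, and without library 2, the one rich in macrophage genes, the rise was 2.28 ± 0.28 (SE; edgeR adjusted p = 0.0032). Tumor PMN-MDSC split after treatment into 121 and 133 CPM in libraries 1 and 2 and 45.8 and 43.1 CPM in libraries 3 and 4, the latter within the untreated range, and the change of 1.03 ± 0.37 (SE; edgeR adjusted p = 0.173) did not pass. Splenic M-MDSC showed 5, 22, 13 and 8 counts after treatment, at least 15.8-fold the untreated group, with every treated library above 0 and an edgeR adjusted p of 3.5e-06 in the fit without the filter.

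Ccl8, the fourth gene of the group on chromosome 11, stayed at 0 or 1 count in every splenic library, treated ones included. Splenic PMN-MDSC held a single count in 1 untreated and in 1 treated library, and splenic M-MDSC had 0 counts in all 8 libraries, treated and untreated. Untreated tumor PMN-MDSC held 75.3, 73.1, 77.9 and 72.1 CPM, the smallest SD relative to its mean of any member in that group, and tumor M-MDSC 5.07, 8.46, 26.3 and 4.89 CPM. Every M-MDSC library lay below every PMN-MDSC library, with a log2 difference of -2.61 ± 0.40 (SE; edgeR adjusted p = 0.00147), or -3.62 without library 3 of M-MDSC, the highest of its group. The ratio of tumor to splenic PMN-MDSC was 786 (95% counting interval 141 to 31083), which covers counting error only, and tumor M-MDSC stood at least 46.9-fold above spleen. Treated tumor M-MDSC held 20.4, 139 and 44.6 CPM, the highest in the macrophage-rich library 2, and overlapped the untreated ones. The change of 2.42 ± 0.72 (SE; edgeR adjusted p = 0.11) did not pass, was 1.37 without library 2 (edgeR adjusted p = 0.265) and passed without library 1 at 2.84 (edgeR adjusted p = 0.0398). Without library 3 of the untreated group it was 3.41 and did not pass. In tumor PMN-MDSC treated libraries held 121, 111, 92 and 52.6 CPM, with 0.27 ± 0.23 (SE; edgeR adjusted p = 0.583).

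**Figure D4:**
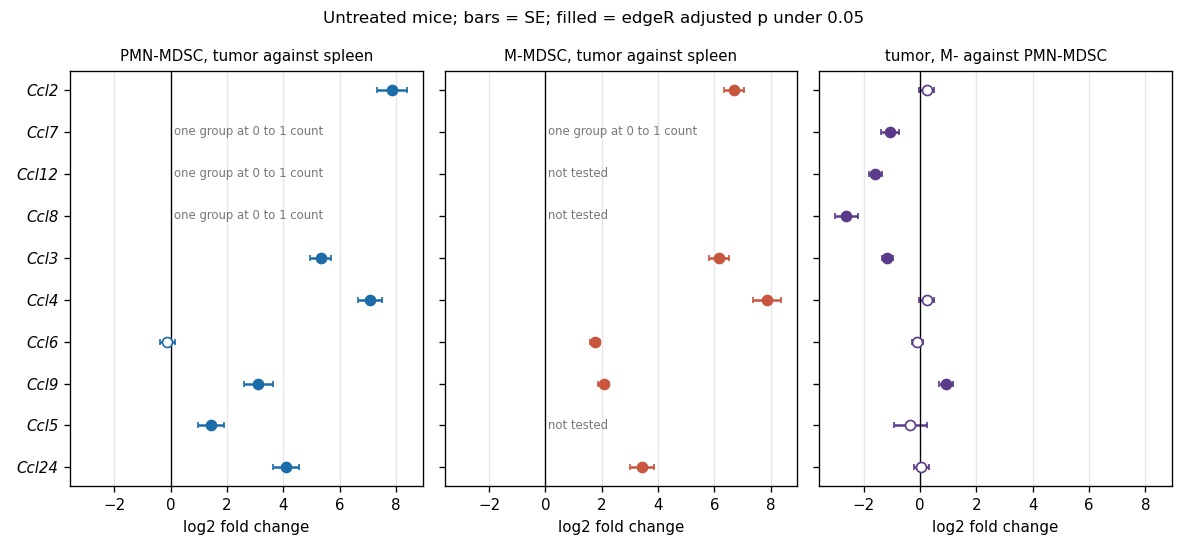
Log2 fold change with SE bars for each gene in untreated mice, for tumor against spleen in PMN-MDSC and M-MDSC and for M-MDSC against PMN-MDSC in tumor. Filled points passed an edgeR adjusted p of 0.05, fits against a group with 0 to 1 count and genes below the filter are written as such and not drawn, and in the points drawn the first 2 panels lie to the right of 0 except for Ccl6 in PMN-MDSC, while in the last panel Ccl7, Ccl12, Ccl8 and Ccl3 lie to the left and Ccl9 to the right.

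Beside these tumor differences stand those of the macrophage genes given above. All 10 were detected in untreated tumor PMN-MDSC, 9 of 10 in untreated tumor M-MDSC (Timd4 at 0), 10 of 10 in splenic PMN-MDSC and 9 of 10 in splenic M-MDSC (Vsig4 at 0). C1qa, a complement gene of macrophages, stood at 486 to 612 CPM in tumor PMN-MDSC, 128 to 330.1 in tumor M-MDSC, 27.2 to 80.5 in splenic PMN-MDSC and 7.65 to 20.8 in splenic M-MDSC. With treatment the macrophage genes summed to 8195 to 17874 CPM in tumor PMN-MDSC and 5032 to 27471 CPM in tumor M-MDSC. The 8 monocyte genes moved from 4436 to 8372 to 1466 to 2903 CPM in tumor PMN-MDSC and from 10611 to 14211 to 2503 to 5496 CPM in tumor M-MDSC, where Ccl7, Ccl12 and Ccl5 rose, and no gene of either list was at 0 in all treated tumor libraries of a cell type. The part of these cells in the ligand levels and in their treatment changes was not tested. Tumor tissue was dissociated with a kit and a mechanical dissociator and spleen was passed through a strainer with lysis of red cells, so compartment and preparation cannot be told apart. 

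Ccl3, a CCR1 ligand of activated macrophages and neutrophils, was higher in tumor than in spleen and higher in tumor PMN-MDSC than in tumor M-MDSC. Untreated PMN-MDSC held 1.98, 6.08, 8.54 and 6.18 CPM in spleen and 174, 253, 226 and 169 CPM in tumor, and M-MDSC 0.885, 0.406, 3.13 and 1 and 101, 106, 115 and 64.8 CPM. The compartments did not overlap in either cell type, with log2 differences of 5.32 ± 0.36 (SE; edgeR adjusted p = 3.0e-06) and 6.16 ± 0.34 (SE; edgeR adjusted p = 1.6e-07), the latter 6.86 without library 3 of untreated splenic M-MDSC. Within tumor the cell types did not overlap, with a log2 difference of -1.15 ± 0.19 (SE; edgeR adjusted p = 0.00179) for M-MDSC against PMN-MDSC. In splenic M-MDSC treatment took Ccl3 to 9.74, 24.7, 26.7 and 9.13 CPM, above all untreated libraries, a rise of 3.61 ± 0.57 (SE; edgeR adjusted p = 0.00264), or 4.37 without that library. In tumor M-MDSC treated libraries held 113, 130.0 and 197 CPM and overlapped the untreated ones (0.55 ± 0.25 SE, edgeR adjusted p = 0.266). The treatment effect in tumor minus that in spleen was -3.06 ± 0.64 (SE; edgeR adjusted p = 0.0442), or -3.77 without library 3 of untreated spleen, a call lost in 11 of 15 fits without 1 library, among them that without the macrophage-rich library 2 (edgeR adjusted p = 0.0745). Tumor PMN-MDSC scattered after treatment, at 116, 192, 328 and 574 CPM, on either side of the untreated values (0.49 ± 0.42 SE, edgeR adjusted p = 0.589). Treated splenic PMN-MDSC held 1, 5 and 4 counts, under the filter.

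Ccl4, the near neighbour of Ccl3 and an attractant of T cells and macrophages, was also higher in tumor than in spleen, and its ranges in the tumor cell types overlapped. Untreated PMN-MDSC held 0.282, 0.608, 0.776 and 2.18 CPM in spleen and 162, 110.4, 139 and 88.7 CPM in tumor, and M-MDSC 0.442, 2.03, 0 and 0.402 and 184, 200.4, 161 and 74.6 CPM. Tumor exceeded spleen without overlap, by 7.07 ± 0.41 (SE; edgeR adjusted p = 1.8e-06) in PMN-MDSC (7.87 without library 4 of spleen) and 7.86 ± 0.49 (SE; edgeR adjusted p = 5.3e-07) in M-MDSC (8.86 without library 2 of spleen), and tumor M-MDSC and PMN-MDSC overlapped, with 0.24 ± 0.26 (SE; edgeR adjusted p = 0.613). Treated splenic M-MDSC held 11.9, 56.1, 47.8 and 17.5 CPM, all above the untreated libraries, a rise of 5.56 ± 0.78 (SE; edgeR adjusted p = 0.00148), or 6.60 without library 2 of the untreated group. The 8 NK cell genes, of a cell type that makes Ccl3 and Ccl4, summed to 7.08 to 16.5 CPM in untreated and 27.1 to 287 CPM in treated splenic M-MDSC, with none at 0, and their part in both rises was not tested. In tumor, treated M-MDSC held 165, 155 and 249.6 CPM and treated PMN-MDSC 114, 176, 125 and 213 CPM, both overlapping the untreated range, and the log2 changes of 0.25 ± 0.31 (SE; edgeR adjusted p = 0.722) and 0.26 ± 0.24 (SE; edgeR adjusted p = 0.63) did not pass. The difference between the tumor and the splenic treatment effect of M-MDSC was -5.30 ± 0.90 (SE; edgeR adjusted p = 0.0244), or -6.36 without library 2 of untreated spleen, lost in 4 of 15 fits without 1 library, those without library 1 of untreated tumor, 3 or 4 of untreated spleen or 3 of treated spleen. Of all genes tested for this difference, 0.79% were called, and of the 10 members Ccl3 and Ccl4. No value of this difference is given for Ccl7, Ccl8 and Ccl12 in either cell type and Ccl24 in PMN-MDSC, since a group had 3 counts or fewer in total.

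Ccl5, a ligand that recruits effector T cells, was the ligand that rose with treatment in all 4 MDSC populations. Without treatment it had the lowest mean FPKM of the members in tumor MDSC of either cell type, but not in spleen. There only Ccl6 and Ccl9 stood above it in M-MDSC, and Ccl6, Ccl9 and Ccl3 in PMN-MDSC. Untreated PMN-MDSC held 5.37, 9.73, 3.49 and 9.82 CPM in spleen and 24.9, 24.4, 12.4 and 8.31 CPM in tumor. M-MDSC held 4.42, 5.28, 2.43 and 9.04 CPM in spleen and 20.8, 20.8, 13.4 and 0 CPM in tumor. The 0 belongs to library 4 of tumor M-MDSC, the shallowest, where 3 counts would stand for 3.78 CPM. Treated splenic PMN-MDSC rose to 28.9, 34.3 and 62.6 CPM and treated tumor PMN-MDSC to 441, 685, 415 and 580.0 CPM. Treated splenic M-MDSC rose to 171, 456, 307 and 324 CPM and treated tumor M-MDSC to 198, 973 and 995 CPM. In all 4 populations every treated library stood above every untreated one. As a log2 change the rise in PMN-MDSC was 2.59 ± 0.43 (SE; edgeR adjusted p = 0.00881) in spleen and 4.85 ± 0.37 (SE; edgeR adjusted p = 1.4e-04) in tumor. In M-MDSC it was 5.76 ± 0.42 (SE; edgeR adjusted p = 4.1e-05) in spleen and 5.59 ± 0.78 (SE; edgeR adjusted p = 0.0129) in tumor.

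The splenic PMN-MDSC response was the smallest of these, and the effect in tumor PMN-MDSC exceeded it by 2.28 ± 0.57 (SE; edgeR adjusted p = 0.0382), where 3.5% of all genes were called. That call was lost in 9 of 15 fits that left out 1 library (adjusted p 0.0205 to 0.0954). In M-MDSC the difference between compartments was -0.18 ± 0.84 (SE; edgeR adjusted p = 0.952). Within treated tumor M-MDSC, library 1 held 198 CPM against 973 and 995 in the others, and the rise in this population lost its call in 2 of 7 fits without 1 library, those without untreated library 1 or 3 (edgeR adjusted p 0.00359 to 0.062 over the fits). Without library 2 it was 5.32 ± 0.80 (SE; edgeR adjusted p = 0.0153).

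Ccl5 is also made by T cells and NK cells, and their marker lists were set beside it. The 10 T cell genes summed to 14.8 to 20, 21.2 to 27.5, 3.25 to 5.75 and 6.76 to 14.3 CPM in untreated splenic PMN-MDSC, tumor PMN-MDSC, splenic M-MDSC and tumor M-MDSC. In the treated ones they summed to 2 to 5.98, 18.2 to 56.2, 4.33 to 59.1 and 9.78 to 133 CPM. The 8 NK cell genes summed in the same order to 2.33 to 10.9, 2.31 to 11.9, 7.08 to 16.5 and 5.07 to 25.7 CPM untreated, and to 8.27 to 26.1, 8.67 to 22.5, 27.1 to 287 and 11.4 to 78.3 CPM treated. Of the T cell genes 6 of 10 and of the NK cell genes 6 of 8 had a count in treated splenic PMN-MDSC (Cd8a, Cd8b1, Trac, Trbc2, Eomes and Klre1 at 0), and all of both lists in the other treated groups. In splenic M-MDSC the highest of these sums, 59.1 and 287 CPM, belonged to library 4 (Ccl5 at 324 CPM), without which the rise was 5.76 ± 0.45 (SE; edgeR adjusted p = 9.8e-05). In treated tumor M-MDSC, where the sums reached 133 and 78.3 CPM, they were not set against Ccl5 library by library. The part of such cells in the rise was not tested.

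Between compartments without treatment, Ccl5 was higher in tumor than in splenic PMN-MDSC by 1.43 ± 0.46 (SE; edgeR adjusted p = 0.0199), with overlapping ranges, and this call was lost in 1 of 6 fits without 1 library in which it was tested, the one without library 3 of spleen. In M-MDSC it missed the filter of 25 counts on average and gave 1.43 ± 0.35 (SE; edgeR adjusted p = 7.2e-04) without it, in a fit that called 15% of all genes. Tumor M-MDSC and tumor PMN-MDSC differed by -0.34 ± 0.58 (SE; edgeR adjusted p = 0.758).

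Ccl6, a CCR1 ligand of myeloid cells, led the members per length in 7 of the 9 groups, and it had the smallest log2 difference between compartments in PMN-MDSC. Untreated PMN-MDSC held 1117, 1668, 998 and 1029 CPM in spleen and 928, 725, 1392 and 1155 CPM in tumor, which overlapped (-0.12 ± 0.26 SE, edgeR adjusted p = 0.711). M-MDSC held 276, 387, 276 and 318 CPM in spleen and 1250.4, 688, 1129.9 and 1077 CPM in tumor, without overlap and higher in tumor by 1.76 ± 0.19 (SE; edgeR adjusted p = 2.8e-05). In spleen every M-MDSC library lay below every PMN-MDSC library, with a log2 difference of -1.89 ± 0.20 (SE; edgeR adjusted p = 4.0e-05), while in tumor the cell types overlapped (-0.09 ± 0.21 SE, edgeR adjusted p = 0.832). After treatment splenic M-MDSC held 218, 157, 167 and 202 CPM, below every untreated library, a log2 change of -0.80 ± 0.16 (SE; edgeR adjusted p = 0.00678). Beside this fall, the monocyte genes summed to 5721 to 9019 CPM untreated and 3139 to 4651 CPM treated in splenic M-MDSC, and the neutrophil genes to 2404 to 5326 and 777 to 3925 CPM, with no gene of either list at 0. The monocyte genes did not move as 1, since Ccr2 fell and Ly6c2 rose there, with values given below. The part of monocytes and neutrophils in the fall of Ccl6 was not tested. The remaining 3 populations overlapped with their untreated libraries. Treated splenic PMN-MDSC held 529, 1103 and 297 CPM (-0.89 ± 0.43 SE, edgeR adjusted p = 0.222), with -1.49 to -0.56 over fits without 1 library (edgeR adjusted p 0.0541 to 0.448). Treated tumor PMN-MDSC held 1256, 909, 906 and 1097 CPM (-0.07 ± 0.22 SE, edgeR adjusted p = 0.899). The values were 807, 276 and 768 CPM in tumor M-MDSC (-0.79 ± 0.38 SE, edgeR adjusted p = 0.297). The lowest tumor M-MDSC value was that of library 2.

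Ccl9, the second CCR1 ligand, was higher in splenic M-MDSC than in splenic PMN-MDSC, the opposite of Ccl6. Untreated splenic PMN-MDSC held 90.1, 26.2, 17.5 and 18.9 CPM and splenic M-MDSC 148, 165, 133 and 161 CPM. M-MDSC were higher in every library, by 2.0 ± 0.48 (SE; edgeR adjusted p = 0.00512). The difference was 2.93 without library 1 of PMN-MDSC, the highest of its group. That library also had the fewest neutrophil (21712 CPM) and the most macrophage transcripts (1458 CPM) of that group. In tumor PMN-MDSC held 403, 184, 342 and 313 CPM and M-MDSC 774, 382, 601 and 718 CPM, ranges that overlapped, with a log2 difference of 0.92 ± 0.25 (SE; edgeR adjusted p = 0.0311) that was lost in 6 of 8 fits without 1 library. Tumor exceeded spleen without overlap in both cell types, by 3.10 ± 0.52 (SE; edgeR adjusted p = 5.3e-04) in PMN-MDSC, or 4.02 without that library, and by 2.07 ± 0.20 (SE; edgeR adjusted p = 1.5e-05) in M-MDSC. With treatment, every library of splenic M-MDSC lay below the untreated ones in Ccl9, at 115, 117, 111 and 72.2 CPM, a change of -0.59 ± 0.15 (SE; edgeR adjusted p = 0.0231). The call was lost in 5 of 8 fits without 1 library (adjusted p 0.0197 to 0.0825). Treated splenic PMN-MDSC, at 9.1, 8.7 and 6.51 CPM, also lay below all untreated libraries, but -2.26 ± 0.69 (SE; edgeR adjusted p = 0.0687) did not pass, and without library 1 the value was -1.36 ± 0.33 (SE; edgeR adjusted p = 0.0546). The macrophage genes summed to 503 to 1458 CPM in untreated and 92.7 to 232 CPM in treated splenic PMN-MDSC (Vsig4 at 0 in the latter), and to 690.3 to 943 and 304 to 548 CPM in splenic M-MDSC (Vsig4 at 0 in both). The monocyte sums of splenic M-MDSC are given with Ccl6. The part of macrophages and monocytes in the splenic differences of Ccl9 was not tested. Treated tumor libraries held 366, 266, 155 and 323 CPM in PMN-MDSC and 437, 164 and 404 CPM in M-MDSC and overlapped the untreated ones, with log2 changes of -0.23 ± 0.28 (SE; edgeR adjusted p = 0.727) and -0.93 ± 0.38 (SE; edgeR adjusted p = 0.213).

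Ccl24, the eotaxin that calls in eosinophils, was the member that fell with treatment in tumor. Untreated tumor PMN-MDSC held 57.8, 35.3, 35.6 and 35.6 CPM and treated ones 2.81, 7.52, 8.61 and 1.44 CPM. Untreated tumor M-MDSC held 69.3, 40.3, 32.1 and 36.7 CPM and treated ones 9.78, 5.28 and 1.39 CPM. In either cell type the treated libraries all lay below the untreated ones. As the treated libraries averaged under 25 counts, the gene had to differ to be tested, and the calls support nothing. The 8 dendritic cell genes also lay lower, without overlap, at 34.2 to 41.4 CPM untreated and 5.26 to 17.7 CPM treated in tumor PMN-MDSC (Siglech at 0 in the latter) and at 16.7 to 34.9 and 4.89 to 10.8 CPM in tumor M-MDSC (Siglech at 0 in both and Cd209a in the latter). The monocyte genes, given above, lay lower in the same way, and the part of such cells in the fall was not tested. The log2 changes were -3.08 ± 0.43 (SE; edgeR adjusted p = 0.00302) and -3.09 ± 0.54 (SE; edgeR adjusted p = 0.0231), the latter -3.69 without treated library 1. In M-MDSC the call was lost in 5 of 7 fits without 1 library (adjusted p 0.0113 to 0.0761), all but those without treated library 1 or 2, and in PMN-MDSC in none of 8. In spleen Ccl24 was under the filter, with 15, 7, 1 and 4 counts in untreated and 1, 0 and 0 in treated PMN-MDSC. M-MDSC held 21, 4, 9 and 17 counts in untreated and 0, 3, 2 and 1 in treated libraries. Every treated splenic M-MDSC library lay below every untreated one in counts and in CPM, and without the filter the log2 change was -3.07 ± 0.69 (SE; edgeR adjusted p = 1.0e-03), while in splenic PMN-MDSC it was -3.28 ± 1.26 (SE; edgeR adjusted p = 0.109). Beside the splenic PMN-MDSC values, the dendritic cell genes summed to 36.9 to 83.9 CPM untreated (Siglech at 0) and 2.48 to 8.16 CPM treated (Flt3, Xcr1 and Siglech at 0). There 9 genes of basophils, mast cells and eosinophils summed to 76.1 to 125 CPM untreated (Mcpt8, Cpa3 and Fcer1a at 0) and 8.02 to 33.1 CPM treated (Ms4a2 and Gata2 at 0 as well), and the macrophage sums are given with Ccl9. The part of such cells in the splenic values of Ccl24 and Ccl9 was not tested. Untreated tumor exceeded spleen without overlap, by 4.09 ± 0.47 (SE; edgeR adjusted p = 5.8e-05) in PMN-MDSC and 3.44 ± 0.42 (SE; edgeR adjusted p = 9.5e-05) in M-MDSC, and the tumor cell types overlapped (0.04 ± 0.27 SE, edgeR adjusted p = 0.947).

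Bulk tumor gave the level of the ligands in the whole tissue. It held 22.2, 19.8, 36.3 and 29.7 CPM of Ccl6, 4.19, 16.8, 10.6 and 9.52 CPM of Ccl2 and 2.57, 4.2, 8.92 and 11.1 CPM of Ccl8. Ccl3 stood at 0.27, 0.741, 0.645 and 1.9 CPM from 2, 3, 6 and 18 counts, Ccl4 at 0.27, 0, 1.08 and 1.27 CPM from 2, 0, 10 and 12 counts and Ccl24 at 0, 0, 0.645 and 0.317 CPM from 0, 0, 6 and 3 counts. Their log2 differences between tumor PMN-MDSC and bulk tumor, a description since they passed the filter only through the sorted cells, were 8.02 ± 0.41 (SE; edgeR adjusted p = 2.2e-08), 7.59 ± 0.45 (SE; edgeR adjusted p = 7.1e-08) and 7.30 ± 0.50 (SE; edgeR adjusted p = 1.4e-07), with no overlap. Without library 4 of bulk tumor the difference of Ccl3 was 8.77, and without library 3 that of Ccl24 was 8.14. Smaller differences between PMN-MDSC and bulk tumor were those of Ccl5 (1.97 ± 0.68 SE, edgeR adjusted p = 0.0251, overlapping, bulk 1.08, 1.24, 9.68 and 8.57 CPM, lost without library 1 or 2 of PMN-MDSC), Ccl8 (3.71 ± 0.37 SE, edgeR adjusted p = 5.2e-06) and Ccl12 (3.88 ± 0.25 SE, edgeR adjusted p = 8.4e-08, bulk 2.57, 2.97, 3.33 and 4.13 CPM). On the same scale M-MDSC exceeded bulk tumor by 6.61 ± 0.29 (SE; edgeR adjusted p = 1.6e-08) for Ccl9 (bulk 5, 7.17, 8.82 and 6.56 CPM) and 4.62 ± 0.39 (SE; edgeR adjusted p = 1.0e-06) for Ccl7 (bulk 0.946, 2.22, 1.83 and 2.12 CPM), the latter again a description. Ccl5 (1.59 ± 0.77 SE, edgeR adjusted p = 0.0889) and Ccl8 (1.0 ± 0.58 SE, edgeR adjusted p = 0.141) overlapped with bulk tumor and did not pass, and without library 3 of M-MDSC the value of Ccl8 was -0.05. Without library 4 of M-MDSC, the shallowest, the value of Ccl5 was 1.93 and passed (edgeR adjusted p = 0.0288). The bulk libraries carried 4869 to 6349 CPM of 8 epithelial genes.

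The libraries were also compared by how their ligand levels moved together. Over the 30 MDSC libraries, Ccl2, Ccl7, Ccl12, Ccl8, Ccl3 and Ccl4 formed a block in which the Pearson r of log2(CPM + 1) was at least 0.823, with the highest value for Ccl7 and Ccl12 (0.967). Ccl6 reached at most 0.478 with any member and Ccl5 and Ccl24 had r = -0.332. These correlations span groups of different compartment and treatment and come with no test. By the same measure over 8536 genes, the genes most like Ccl8 were Pf4 (r = 0.984), Ms4a14 and Mmp13, and Pf4 was also the most like Ccl7 (0.975). Ccl2 was most like Ctsl (0.962), Ccl3 most like Maff (0.948), Ccl4 most like Ccl2 (0.957), Ccl12 most like Ccl7 and then Rgs1 (0.964), and Ccl9 most like Cysltr1 (0.959). Ccl5 was most like Ly6a (0.897), AW112010 and Lgals3bp, Ccl6 most like Gm28192 (0.922), and Ccl24 most like Ednrb (0.908).

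**Figure D5:**
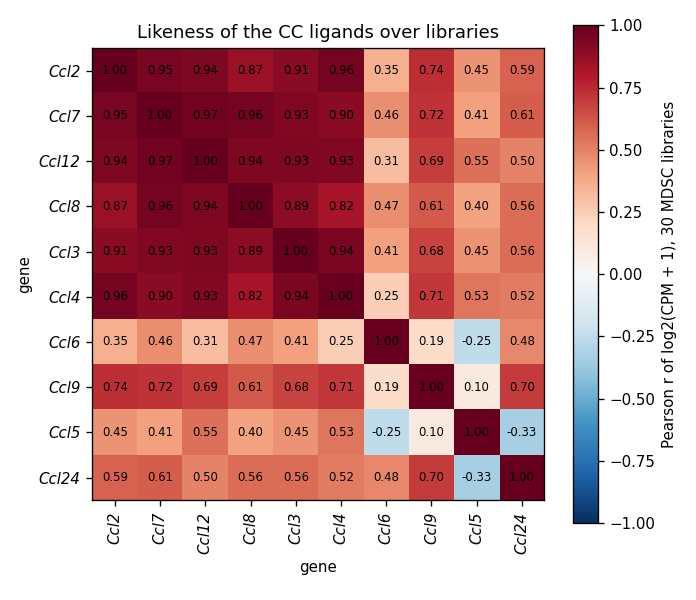
Pearson r of log2(CPM + 1) between the 10 genes over the 30 MDSC libraries, as colour from -1 (blue) to 1 (red) with the value in each cell. The first 6 genes form a block of high r, Ccl9 lies at 0.610 to 0.736 with it, and Ccl6, Ccl5 and Ccl24 stand outside it.

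The other side of the pathway was read from lists of the remaining CC ligands, CC receptors, receptor signaling and regulators. Of the 12 other CC ligands, none passed the filter of 25 counts in PMN-MDSC or tumor M-MDSC treatment comparisons and 1 did in splenic M-MDSC, without a call. Of 15 CC receptors and scavengers, 5 were tested in each population, of which 1 rose and 2 fell in splenic PMN-MDSC, 1 fell in tumor PMN-MDSC, 2 rose and 1 fell in splenic M-MDSC and none passed in tumor M-MDSC. Of all genes tested, 11.6%, 3.36%, 19.6% and 2.88% were called in the same order, which is the background for each list count here and below. Ccr2, the receptor of Ccl2, Ccl7 and Ccl12, fell in splenic PMN-MDSC (-5.92 ± 0.91 SE, edgeR adjusted p = 0.00671), tumor PMN-MDSC (-2.95 ± 0.61 SE, edgeR adjusted p = 0.0367) and splenic M-MDSC (-2.73 ± 0.32 SE, edgeR adjusted p = 5.7e-04), with 1053 to 1334 CPM untreated and 81 to 289 CPM treated. In tumor M-MDSC Ccr2, also one of the 8 monocyte genes, stood at 1064 to 1498 CPM untreated and 33.2 to 475 CPM treated and did not pass the test. Ccrl2, an atypical receptor, rose in splenic PMN-MDSC (2.0 ± 0.44 SE, edgeR adjusted p = 0.0238) and splenic M-MDSC (3.66 ± 0.35 SE, edgeR adjusted p = 1.9e-04). Ccr3, the receptor of Ccl24, fell in splenic PMN-MDSC (-4.01 ± 0.61 SE, edgeR adjusted p = 0.00667).

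Among 28 genes of chemokine receptor signaling, 1 rose and 1 fell of 26 tested in splenic PMN-MDSC, 1 and 1 of 27 in tumor PMN-MDSC, 3 and 3 of 27 in splenic M-MDSC and 2 and 0 of 26 in tumor M-MDSC. With 11.6%, 3.36%, 19.6% and 2.88% of all genes called there, these counts are a description and no result about the list. Rgs1, a brake on G protein signaling, rose by 5.28 ± 0.50 (SE; edgeR adjusted p = 1.9e-04) in splenic and 2.65 ± 0.50 (SE; edgeR adjusted p = 0.0308) in tumor M-MDSC. Of 21 regulators of NF-kB and interferon responses, 3 rose and 1 fell in splenic PMN-MDSC, 3 rose in tumor PMN-MDSC, 7 rose in splenic M-MDSC and 1 rose in tumor M-MDSC. Irf7, an interferon regulatory factor of that list, rose in all 4 populations, by 2.75, 3.88, 2.95 and 3.01 on the log2 scale. Of 12 interferon-stimulated reference genes, Irf7 among them, 11, 10, 12 and 6 rose and none fell, with median log2 changes of 3.72, 3.13, 3.83 and 2.60. Ly6c2, a gene of the Ly6C antigen on which the cells were gated and also one of the monocyte genes, stood at 100.4 to 176 CPM in untreated and 719 to 910.2 CPM in treated splenic M-MDSC and at 43.2 to 114 and 754 to 1385 CPM in splenic PMN-MDSC. The part of the gate in the treatment differences was not tested.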

How the data were processed

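RNA from sorted MDSC and from bulk tumor was made into strand-specific total RNA libraries (SMARTer Pico kit, PCR without molecular identifiers). Per the labels and methods, the authors aligned reads with ContextMap and BWA to GRCm38 and deposited whole-number counts of fragments per gene, made with featureCounts (Subread 1.4.6-p3) on Gencode annotation, without normalization. All other values were computed here. Sample titles carry numbers that recur across cell types and compartments, whereas columns carry a group and a running number, so columns were assigned to groups only and libraries that may share a mouse entered the fits as independent. P-values measure the spread between these libraries.

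Of 35 libraries 34 were used, and the 1 with 10 counts was left out. No 2 libraries of a group agreed within sampling noise. Gene symbols and exon lengths came from GENCODE M21 for 53274 of 53379 rows. CPM used TMM factors over the 34 libraries, and FPKM is CPM per kilobase of exon. Each comparison was fitted on its own libraries with edgeR 4.0.16 (R 4.3.3; quasi-likelihood F-test, robust, TMM, two-sided) on genes averaging at least 25 counts, with Benjamini-Hochberg adjustment over all genes tested and a call at an adjusted p under 0.05. A group at 0 counts was set to a floor of 3 counts over the group for bounds. Intervals and floors cover counting error only. Alternatives were RLE and upper-quartile factors, DESeq2 1.42.0, no filter on low counts, the study's threshold (adjusted p under 0.001 and at least 2-fold), 1 fit over all MDSC groups and each library left out. The fit was also run on simulated data, the outcome of which is not reported here. Promoter motifs and alignments were made with Python 3.11.15 and Biopython 1.88.

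All 10 members are described. From each list up to 3 called genes per comparison with the smallest adjusted p could be named, and for each member up to 3 genes most like it by Pearson r of log2(CPM + 1). Values of the cell type marker genes named beside results, such as C1qa, Ly6g and Ly6c2, fall outside that rule and were chosen after their values were seen. A result of 1 gene of these lists and an allele of the tumor line are not reported here. The members and lists were chosen with earlier results of these data known.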

Additional observations from a re-analysis of the deposited data

Results flagged for a closer look

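In 5 of 57 gene and group combinations with 4 libraries, 1 library lay farther from the rest than Dixon's 95% limit allows, and chance gives about 1 in 20. Ccl2 was high in library 2 of untreated splenic M-MDSC (2.44 CPM). Ccl8 was high in library 3 of untreated tumor M-MDSC (26.3 CPM). Ccl9 was high in library 1 of untreated splenic PMN-MDSC (90.1 CPM), the library with the fewest neutrophil and the most macrophage transcripts of its group, and low in library 4 of treated splenic M-MDSC (72.2 CPM), the library rich in B and plasma cell transcripts. Ccl24 was high in library 1 of untreated tumor PMN-MDSC (57.8 CPM).

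The treatment effect differed between tumor and spleen for 3 member results by the interaction test of edgeR. Tumor minus spleen, on the log2 scale, was 2.28 ± 0.57 (SE; edgeR adjusted p = 0.0382) for Ccl5 in PMN-MDSC, -3.06 ± 0.64 (SE; edgeR adjusted p = 0.0442) for Ccl3 in M-MDSC and -5.30 ± 0.90 (SE; edgeR adjusted p = 0.0244) for Ccl4 in M-MDSC. The test called 3.5% of all genes for PMN-MDSC and 0.79% for M-MDSC. When 1 library was left out, the call was lost in 9 of 15 fits for Ccl5, 11 of 15 for Ccl3 and 4 of 15 for Ccl4.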

How the results depend on the processing

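Of 90 member results tested, 56 were called, and over 738 alternative fits of these, 673 kept the call, 65 lost it and 0 turned the direction. This tally includes the calls of members that passed the filter only through 1 group, named above, so it is a description and no measure of support. Fits in which a member fell under the filter are not in it, and neither is the study's threshold. No paired analysis was possible because the columns carry a running number in place of the numbers of the sample titles and were not matched to samples by their order. At the study's threshold the members called by treatment were 0 in splenic PMN-MDSC, 1 in tumor PMN-MDSC, 1 in splenic M-MDSC and 0 in tumor M-MDSC, between cell types 1 in spleen and 0 in tumor, and for the difference in treatment effect 0 in either cell type. Without the filter, which tests more genes, they were 4, 4 and 8 in splenic PMN-MDSC, tumor PMN-MDSC and splenic M-MDSC and 4 and 4 for the difference in treatment effect in PMN-MDSC and M-MDSC. DESeq2 gave 2 in splenic PMN-MDSC and 2 for the difference in PMN-MDSC. The fit over all MDSC groups gave 2 in splenic PMN-MDSC, 3 in splenic M-MDSC, 2 between tumor cell types and 0 for the difference in PMN-MDSC. The cause was not tested for the last 2 tools. With 1 library left out, the treatment counts were 1 to 1 in splenic PMN-MDSC, 2 to 2 in tumor PMN-MDSC, 4 to 5 in splenic M-MDSC and 1 to 5 in tumor M-MDSC. Tumor against spleen gave 8 to 9 in PMN-MDSC and 6 to 8 in M-MDSC, cell types 2 to 2 in spleen and 3 to 4 in tumor, bulk tumor 9 to 10 with PMN-MDSC and 7 to 9 with M-MDSC, and the difference in treatment effect 0 to 1 in PMN-MDSC and 0 to 3 in M-MDSC. Among results that were not called, 13 changed sign when a library was left out. Their log2 ranges were -0.030 to 0.75 for Ccl3 and -0.20 to 0.057 for Ccl6 with treatment in tumor PMN-MDSC, -0.10 to 0.60 for Ccl2 and -0.0053 to 0.40 for Ccl4 with treatment in tumor M-MDSC, -0.23 to 0.16 for Ccl6 between compartments in PMN-MDSC, -0.056 to 0.39 for Ccl2, -0.22 to 0.060 for Ccl6 and -0.24 to 0.26 for Ccl24 between tumor cell types, and -0.055 to 1.28 for Ccl8 between M-MDSC and bulk tumor. For the difference in treatment effect in M-MDSC they were -0.63 to 0.26 for Ccl5, -0.22 to 0.39 for Ccl6, -0.56 to 0.017 for Ccl9 and -0.64 to 0.39 for Ccl24. Upper-quartile factors gave 0.053 for Ccl6 between compartments in PMN-MDSC and 0.0097 for Ccl24 in the difference in M-MDSC, where DESeq2 gave 0.086 for Ccl24 and -0.0077 for Ccl6 and RLE factors -0.0079 for Ccl6. In spleen, where 3 counts stood for up to 1.92 CPM, depth limits what can be said of Ccl2, Ccl7, Ccl8, Ccl12 and Ccl24. The same holds for Ccl3 and Ccl4 without treatment, which averaged 9.125 and 2.25 counts over the untreated splenic libraries. Fold sizes of Ccl3 and Ccl4 against untreated spleen, those in the difference in treatment effect included, rest on these low counts.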
